A study of Homo sapiens with 8 samples.

Results

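The probe sets of chromosome 15 on the Affymetrix Human Transcriptome Array were compared between A375 melanoma cells in which doxycycline induced an shRNA to PLK1 (shPLK1) and A375 cells with a nonsense shRNA (shNS). Members were taken by their ID, which starts with PSR15 for an exon probe set (a stretch of 1 exon) and with JUC15 for a junction probe set (2 joined exons), followed by 6 digits and .hg.1. This gave 19237 exon and 11303 junction probe sets, together 30540 of the 914585 probe sets and controls of the array. Each group has 4 arrays in the sample labels, from cultures that received doxycycline for 48 h. The Methods give 3 replicates of each line without naming them, so all 8 arrays were used. Both groups are the same human melanoma line, A375, and both carry a TRIPZ lentiviral inducible shRNA vector. The labels list several shPLK1 clone numbers without saying which were on the arrays. The Methods describe the lentiviral shRNA lines of the study as polyclonal and puromycin-selected. The cells on the arrays were created earlier, and the Methods do not say whether they were such pools. As each shRNA was carried by its own cells, a difference between these cells and an effect of the shRNA cannot be told apart. All p-values therefore rest on the variation among the cultures of a group. PLK1 itself and markers of melanoma could not be read, since no gene could be assigned to a probe set from the tables at hand, so neither the knockdown nor the cell line was checked. The RNA is from whole cultures, so more cells with a raised signal and a raised signal in every cell cannot be told apart.

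Chromosome 15 is acrocentric, with ribosomal RNA genes on its short arm and nearly all of its other genes on the long arm. It is known for the imprinted region of the Prader-Willi and Angelman syndromes, where either the maternal or the paternal copy is silent. It also carries genes of growth factor signaling such as MAP2K1 and SMAD3, the β2-microglobulin gene B2M, and FBN1, the gene of the matrix protein fibrillin. A change that runs along a chromosome shows on an array as many unrelated neighboring genes that differ slightly in the same direction, whereas regulation of a single gene shows as a short block of probe sets.

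A second deposited table, made by the authors, lists transcript clusters (1 cluster stands for 1 locus) and gives gene names to 5 of its 6 chromosome 15 clusters. It lists changes over 2-fold only, with 1 average per group and no spread, in columns headed 5d and NS. No source used here explains 5d, which was read as shPLK1. RAB8B, a small GTPase of vesicle transport to the cell surface, had the authors' averages of 8.59 in 5d and 7.42 in NS on the log2 scale, a difference of 1.17. NEO1 encodes neogenin, a receptor for netrins and repulsive guidance molecules, and its averages were 8.59 and 7.58, a difference of 1.01. MYEF2, known from the mouse as a repressor of the myelin basic protein gene, had averages of 6.28 and 4.52 and the largest difference of the 6, at 1.76. These 3 clusters are classed as coding. A cluster of SMAD3, which transmits TGF-β signals to the nucleus, was classed as noncoding and had averages of 9.85 and 8.73, a difference of 1.12. SHC4, an adaptor of receptor tyrosine kinases that is known in melanoma, went the other way, with averages of 4.49 in 5d and 5.68 in NS, a difference of -1.19. The sixth cluster, TC15001823.hg.1, has no symbol, and its averages were 4.76 and 5.89, a difference of -1.13. Of the 6 clusters 4 were thus higher and 2 lower in 5d, beside 185 higher and 306 lower among all 491 clusters of that table. Of 85 chromosome 15 genes in 7 lists, only SMAD3 is in that table, by its noncoding cluster, among 13 genes of growth signaling. None of 6 pigmentation genes, 15 of matrix and adhesion, 19 of mitosis and the cell cycle, 13 of the Prader-Willi region, 7 of antigen presentation and immunity or 12 retinoid and lipid enzymes is listed. The share of all genes of the array that the authors list was not computed, so nothing is read from these counts. Absence from a table of changes over 2-fold is not a measured lack of change.

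Promoter sequences (250 bases before to 50 after the start, RefSeq, GRCh38.p14) were found for 3 of the 4 named coding clusters, and are shown because the 2 genes that were higher and the 1 that was lower differ in their content of CG pairs, the sites of DNA methylation. Capitals mark every CG, read 5′ to 3′ on the strand of the gene.
RAB8B, chr15:63189356-63189655, plus strand: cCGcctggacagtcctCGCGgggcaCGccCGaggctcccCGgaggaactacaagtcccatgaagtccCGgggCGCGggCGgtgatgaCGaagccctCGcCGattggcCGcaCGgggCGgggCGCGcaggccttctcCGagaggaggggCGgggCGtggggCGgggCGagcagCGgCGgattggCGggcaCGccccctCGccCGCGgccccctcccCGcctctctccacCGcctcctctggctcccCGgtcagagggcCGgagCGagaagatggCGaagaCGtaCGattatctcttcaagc
NEO1, chr15:73051652-73051951, plus strand: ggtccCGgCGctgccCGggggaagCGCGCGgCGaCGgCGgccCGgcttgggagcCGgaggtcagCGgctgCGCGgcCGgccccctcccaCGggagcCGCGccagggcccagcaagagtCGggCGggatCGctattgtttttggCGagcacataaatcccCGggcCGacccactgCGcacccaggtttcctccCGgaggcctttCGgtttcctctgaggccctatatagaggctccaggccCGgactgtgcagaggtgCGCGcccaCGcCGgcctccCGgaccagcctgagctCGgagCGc
SHC4, chr15:48963870-48964169, minus strand: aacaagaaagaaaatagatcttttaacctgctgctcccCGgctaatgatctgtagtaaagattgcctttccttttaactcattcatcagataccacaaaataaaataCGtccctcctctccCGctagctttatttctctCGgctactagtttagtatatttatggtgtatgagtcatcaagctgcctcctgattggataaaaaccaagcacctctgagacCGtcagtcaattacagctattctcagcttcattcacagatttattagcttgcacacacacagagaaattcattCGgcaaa
The RAB8B promoter holds 38 CG pairs and that of NEO1 35, while that of SHC4 holds 6. Over the 35116 promoters of the RefSeq table the median was 14, and over the 1225 of chromosome 15 it was 15, while 96.0% held at least 1 CG. A count as high as that of RAB8B was found in 9.91% of all promoters, as high as that of NEO1 in 14.1% and as high as that of SHC4 in 66.3%. With 3 genes this is a description of the sequences, and methylation was not measured.

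Chromosome 15 was chosen because its exon probe sets were shifted upward in shPLK1, so its shift is given as a description with no test. For each array the shift is the median, over probe sets whose log2 signal averaged 7 or more, of the signal's deviation from the 8-array mean, from which the corresponding median of chromosomes 1 to 22 and X was subtracted. The values of the 2 groups therefore mirror each other around 0. Over 5347 exon probe sets the 4 shPLK1 arrays had 0.052, 0.039, 0.044 and 0.047, and the 4 shNS arrays -0.050, -0.038, -0.047 and -0.044. The arrays of each group lay close together and the groups far apart. The difference was 0.090 on the log2 scale, with an SD over arrays of 0.0056 in shPLK1 and 0.0051 in shNS (n = 4 each). Over 3365 junction probe sets, which use other probes of the same RNA, the shPLK1 arrays had 0.064, 0.048, 0.051 and 0.048, and the shNS arrays -0.057, -0.044, -0.056 and -0.049. The junction difference was 0.104, with SDs of 0.0073 and 0.0063, a value close to that of the exons.

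Among 23 chromosomes the exon shift of chromosome 15 came after those of chromosome 18 (0.377) and chromosome 13 (-0.248) in size. The next values, just outside, were -0.067 on chromosome 1 and 0.056 on chromosome 20, while chromosome 14, with a similar number of probe sets, had 0.0052. Junction probe sets gave the same order, with 0.421 on chromosome 18, -0.288 on chromosome 13, -0.078 on chromosome 1 and 0.059 on chromosome 20. The arrays within a group were closer to each other on chromosome 15 than on chromosome 18, where the exon SDs were 0.040 and 0.036. Such closeness was not particular to chromosome 15. Exon SDs in shPLK1 and shNS were 0.0045 and 0.0048 on chromosome 9, and 0.0053 and 0.0051 on chromosome 12.

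**Figure D1:**
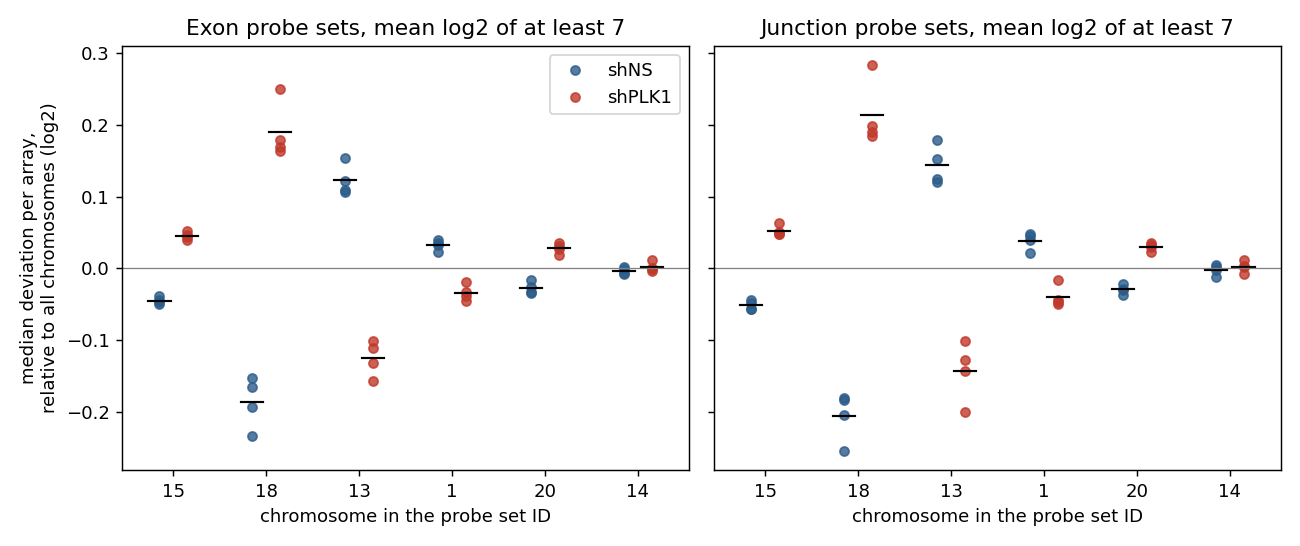
Median deviation of each array (points, log2 units relative to all chromosomes) and group means (bars) for exon probe sets (left) and junction probe sets (right) with a mean log2 of at least 7. On chromosome 15 the shPLK1 arrays sit near 0.046 for exons and the shNS arrays near -0.045, a smaller gap than on chromosome 18 and a tighter one.

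The middle of the distribution lay higher as well as its upper end. Relative to the median of all chromosomes, 66.7% of the 5347 exon probe sets were higher in shPLK1, against 49.6% of the 149955 exon probe sets outside chromosomes 13, 15 and 18. Their lower quartile, median and upper quartile were -0.040, 0.075 and 0.222 on the log2 scale, where those of the other chromosomes were -0.124, -0.002 and 0.119. Each quartile thus lay higher, by a similar step. For junction probe sets the quartiles were -0.053, 0.094 and 0.259, against -0.145, -0.003 and 0.142. At the upper end, 93 exon probe sets were more than 1 log2 unit higher (1.74%) and 12 more than 1 lower (0.224%), where the other chromosomes had 0.869% and 0.964%.

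**Figure D2:**
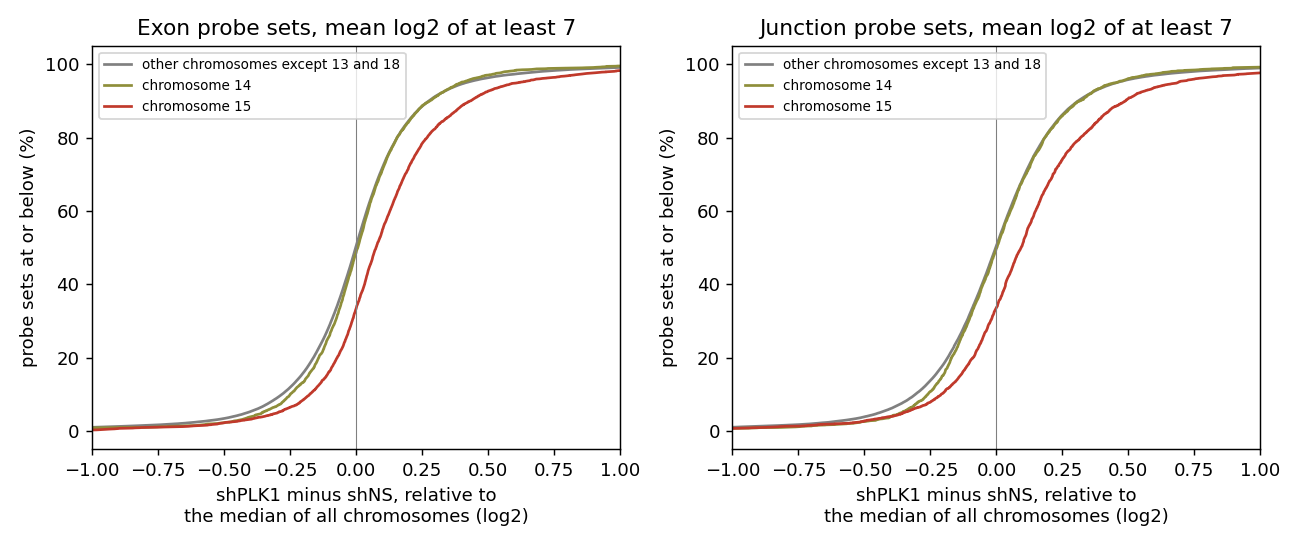
Cumulative share of probe sets (percent) by their difference between shPLK1 and shNS (log2, relative to the median of all chromosomes), for exon (left) and junction (right) probe sets with a mean log2 of at least 7. The chromosome 15 curve runs to the right of both others over most of its length, and 66.7% of its exon probe sets lie above 0.

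The size of the shift went with the level of the signal. The 23 background controls of the array had a median of 2.98, with means spread from 1.36 to 10.78. Exon probe sets with a mean below 3, near or below that median, differed by 0.012 between the groups, and the groups overlapped. From 3 to 5 the difference was 0.026, from 5 to 7 it was 0.057, from 7 to 9 it was 0.085 and from 9 to 11 it was 0.101. The 306 exon probe sets above 11 differed by 0.089, so the rise leveled off at the strongest signals. Junction probe sets went from 0.025 below 3 to 0.0997 between 7 and 9 and 0.126 above 11. A shift over probe sets of all levels therefore gave lower values, 0.056 for exons and 0.076 for junctions.

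Along the ID numbers the exon probe sets were divided into 24 runs of 801 or 802, of which 119 to 327 had a mean of at least 7. ID numbers of named coding clusters on all chromosomes mostly followed position, in 330 of 363 pairs of 1 strand, and were mostly lower on the plus strand, in 326 of 389 pairs of opposite strands. If probe set numbers follow that scheme, which was not tested, the plus strand is crossed first and the minus strand after it. Only coding clusters were checked. The noncoding cluster of SMAD3, a plus-strand gene, has a higher number (TC15002251.hg.1) than that of SHC4 on the minus strand (TC15001338.hg.1). Junction run 22, from JUC15009967.hg.1 to JUC15013323.hg.1, spans more numbers than any other junction run. Neighboring runs, above all late ones, therefore need not be neighboring regions of 1 strand. The shift was above 0 in 21 of the 24 exon runs. In 14 runs all 4 shPLK1 arrays lay above all 4 shNS arrays, in 1 run they all lay below, and in 9 the groups overlapped. Over the 480 runs of the 20 chromosomes other than 13, 15 and 18, 17.3% were higher without overlap and 11.9% lower. The median run had a shift of 0.071, with an SD of 0.087 over runs. Chromosome 14, divided in the same way, had a median run of -0.0043 and an SD of 0.043. Chromosome 3, with a smaller shift of 0.045, had 22 exon runs above 0 and 14 higher without overlap, so a like tally of runs was not particular to chromosome 15.

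The highest run was the second (PSR15000990.hg.1 to PSR15001953.hg.1), where the shPLK1 arrays had 0.132, 0.120, 0.154 and 0.064 and the shNS arrays -0.099, -0.169, -0.134 and -0.092. Its difference was 0.241, and 77.8% of its 239 probe sets at that level were higher in shPLK1. Run 19 (PSR15017560.hg.1 to PSR15018524.hg.1) had nearly the same difference, 0.241, with shPLK1 arrays at 0.102, 0.150, 0.144 and 0.106. The shNS arrays of run 19 were the tightest of any exon run, at -0.112, -0.120, -0.113 and -0.116. Run 6 followed, at 0.191, with shPLK1 arrays from 0.086 to 0.129 and shNS arrays from -0.111 to -0.068. None of these 3 runs had overlapping groups. With probe sets of every level included, runs 2, 19 and 6 were at 0.101, 0.076 and 0.096.

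At the other end, run 20 (PSR15018525.hg.1 to PSR15019372.hg.1), which directly follows one of the highest runs, was the 1 exon run that was lower throughout. Its shPLK1 arrays had -0.060, -0.091, -0.081 and -0.038 and its shNS arrays 0.050, 0.116, 0.071 and 0.064, a difference of -0.143. Of its 146 probe sets at that level 36.3% were higher in shPLK1, and over probe sets of every level its difference was -0.059. Run 1 had a difference of -0.072, but its shPLK1 arrays (-0.128 to 0.016) and shNS arrays (-0.0059 to 0.116) overlapped. That difference was -0.039 without shNS replicate 4 and -0.027 over probe sets of every level. In run 18 the difference was -0.0014, well within the SD of 0.036 and 0.022 over arrays, and its sign turned under several alternatives (0.019 over probe sets of every level, 0.0041 without repeated probe sets, and -0.020 to 0.0081 with 1 array left out).

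The 24 junction runs, of 470 or 471 probe sets each, need not cover the same loci as the exon runs of the same number. Of these, 22 were above 0, 16 were higher without overlap and 1 was lower without overlap, beside 17.1% and 13.96% of the runs of the other 20 chromosomes. Junction run 2 was the highest at 0.232, with shPLK1 arrays at 0.146, 0.144, 0.141 and 0.066 and shNS arrays from -0.127 to -0.074, and at 0.122 over probe sets of every level. Run 12 was at 0.229, with shPLK1 arrays from 0.086 to 0.151 and shNS arrays from -0.129 to -0.081. The groups stood apart in both. Junction run 23 was at -0.082, with shPLK1 arrays from -0.091 to -0.019 and shNS arrays from -0.017 to 0.127. The gap between the groups was narrow in that run, and without probe sets that repeat an earlier one its difference was -0.027. It was -0.047 without shNS replicate 2 and -0.040 over probe sets of every level. Run 13 was at -0.034 with overlapping groups, at -0.052 without shPLK1 replicate 2, -0.020 without shPLK1 replicate 3, -0.022 without shNS replicate 2 and -0.0063 over every level.

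**Figure D3:**
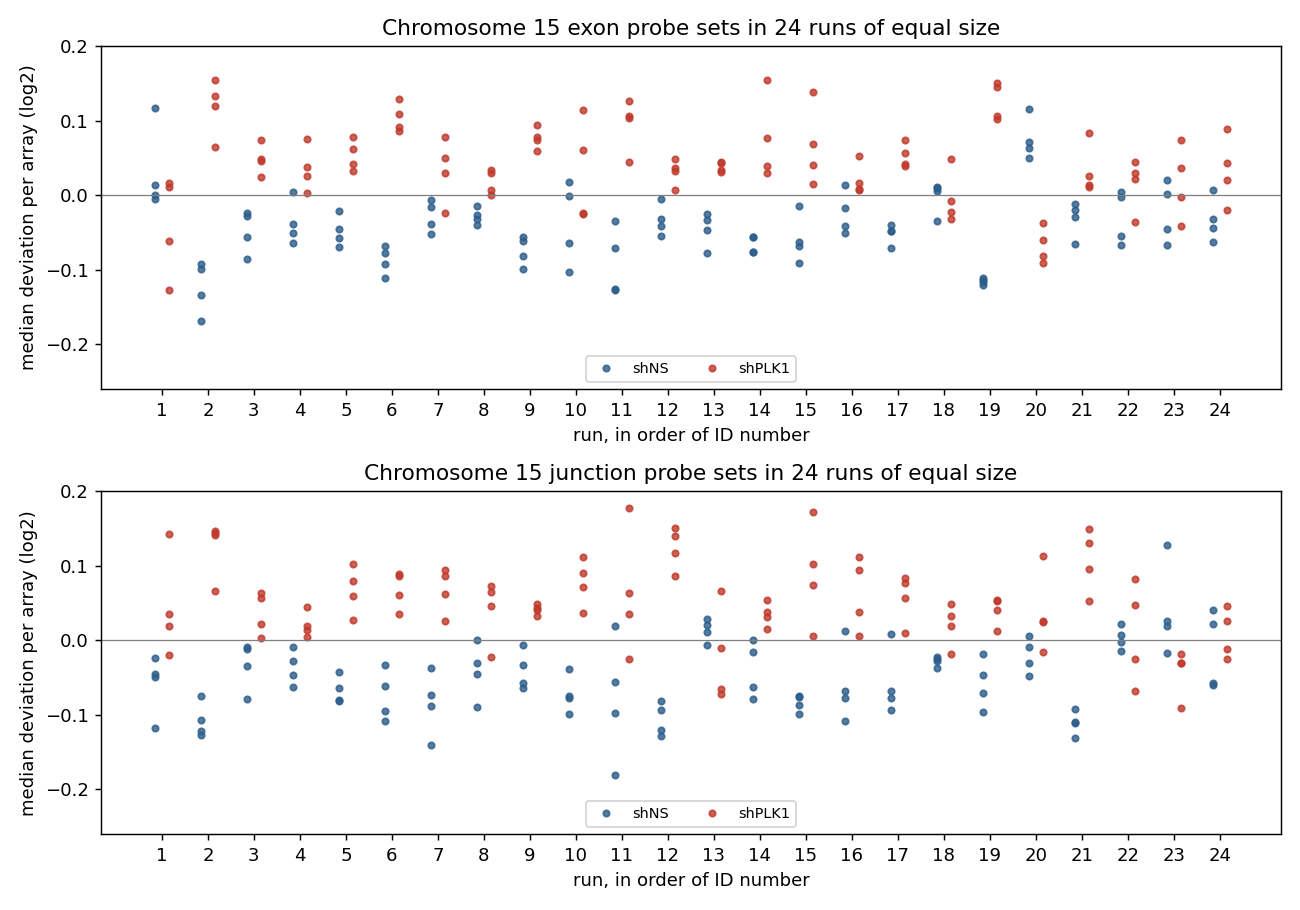
Median deviation of each array (points, log2) in 24 runs of chromosome 15 exon probe sets (top) and junction probe sets (bottom) with a mean log2 of at least 7, in order of ID number. The shPLK1 arrays lie above the shNS arrays in most runs, and in exon run 20 and junction run 23 below them.

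Single probe sets were called by limma at a Benjamini-Hochberg adjusted p under 0.05, fitted to all exon probe sets of the array, and apart from that to all junction probe sets. This called 635 exon probe sets of chromosome 15 higher (3.3%) and 250 lower (1.3%). Over the 573909 exon probe sets of the array 1.99% were called higher and 2.2% lower. Since the chromosome was chosen on this contrast, nothing is read from the difference between these shares. Of junction probe sets 200 (1.77%) were higher and 67 (0.593%) lower, beside 0.897% and 1.01% of 339146. Higher junction calls fell whichever array was left out, to between 117 and 152. They were 123 without shPLK1 replicate 2, 117 without shPLK1 replicate 3, and 126, 129 and 119 without shNS replicates 1, 2 and 3. Lower junction calls fell to between 40 and 57, with 43 without shPLK1 replicate 4 and 40 without shNS replicate 3. Higher exon calls likewise fell with any array left out, to between 443 and 537. A fit with 1 array fewer has less power, so these falls do not single out any array. The share of junction calls that were higher was 71.3% to 77.2% in these fits, beside 74.9% with all 8 arrays. With limits of more than 2-fold and p below 0.05 without adjustment instead, limma called 220 exon probe sets higher and 87 lower, with 0.817% and 1.05% over the array, and 275 junction probe sets higher and 106 lower, with 1.38% and 1.53% over the array. Groups did not overlap in 1514 exon probe sets that were higher (7.87%) and 582 that were lower (3.03%), against 4.89% and 5.31% over the array. For junctions these were 725 higher (6.41%) and 298 lower (2.64%), against 3.84% and 4.23%.

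Calls and shift did not always go together from run to run. The most higher exon calls were in run 6 (73), run 5 (71), run 14 (57) and run 2 (53). Run 3, with a shift of 0.097 and no overlap, had 3 higher and 5 lower calls. Run 7 had 26 lower and 6 higher calls although its median was 0.062 higher, with overlapping groups. The highest counts of lower calls were in run 20 (40) and run 1 (29), which are also the runs with the lowest shifts. Runs 9 and 17 had nearly as many, 27 each, although their shifts were 0.151 and 0.104. Among junctions, run 12 combined a shift of 0.229 with 2 calls, while run 15 held 42 of the 200 higher calls.

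**Figure D4:**
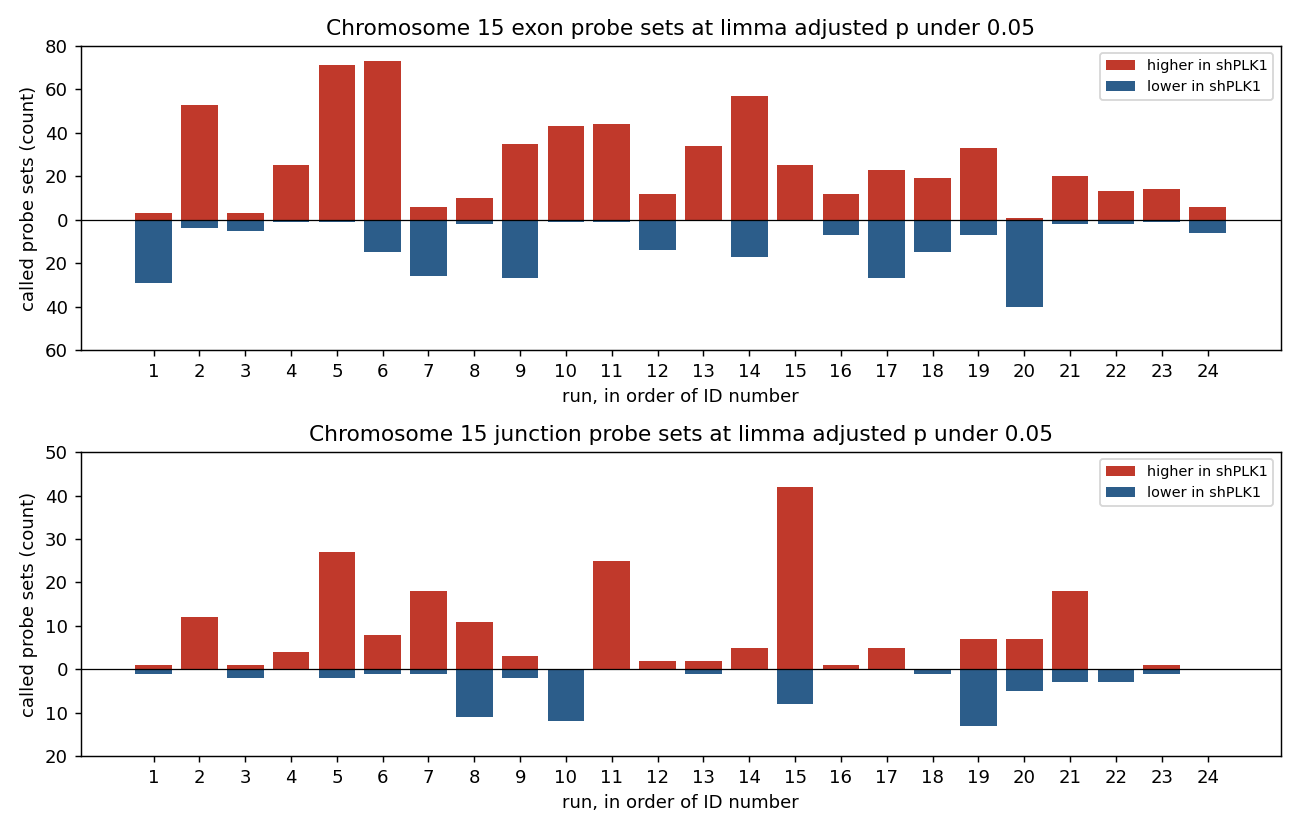
Number of chromosome 15 probe sets called at a limma adjusted p under 0.05 in each of 24 runs, higher in shPLK1 (upward bars) and lower (downward bars), for exons (top) and junctions (bottom). Exon runs 5 and 6 hold 71 and 73 higher calls, and run 20 holds 40 lower calls with 1 higher.

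The called exon probe sets were gathered in blocks. Among those at or above the level limit of 7, the differences of exon neighbors had Pearson's r = 0.75 over 5346 pairs, and those of junction neighbors 0.59 over 3364 pairs. Neighbors often belong to the same transcript and share the same arrays, so these values describe the order and carry no test. Stretches were defined as at least 5 probe sets called in 1 direction with at most 2 uncalled ones between neighbors. There were 41 higher exon stretches with 425 of the 635 higher calls (66.9%), and 16 lower ones with 137 of the 250 lower calls (54.8%). Among junctions 10 higher stretches held 96 of 200 calls, and 3 lower ones held 22 of 67. Stretches and neighbor correlations were not computed for other chromosomes. The blocks therefore cannot be read as particular to chromosome 15.

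The longest higher stretch ran from PSR15012736.hg.1 to PSR15012785.hg.1, with 43 of 49 probe sets called and a median difference of 1.02 on the log2 scale. The median signal of its called probe sets was 7.32, 7.11, 6.92 and 6.76 on the shPLK1 arrays and 6.01, 6.07, 6.17 and 6.22 on the shNS arrays. The second ran from PSR15005705.hg.1 to PSR15005739.hg.1, with 31 of 34 called and a median difference of 1.16, from 8.88, 8.97, 8.95 and 8.71 on the shPLK1 arrays and 7.69, 7.70, 7.69 and 7.76 on the shNS arrays. The third lay at a much stronger signal. From PSR15017820.hg.1 to PSR15017842.hg.1, 22 of 23 were called, with medians of 11.10, 11.08, 11.02 and 10.96 in shPLK1 and 10.09, 10.10, 10.03 and 10.20 in shNS, a median difference of 0.93. This stretch is in run 19, one of the runs with the highest shift.

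The longest lower stretch, from PSR15008797.hg.1 to PSR15008829.hg.1, had 24 of 26 probe sets called and a median difference of -0.90, with shPLK1 medians of 8.29, 8.33, 8.22 and 8.08 and shNS medians of 9.18, 9.25, 9.13 and 9.22. It lies in run 9, whose other probe sets were mostly higher, with a shift of 0.151. From PSR15015928.hg.1 to PSR15015949.hg.1, 16 of 20 were called, with a median difference of -1.03. The third lower stretch, from PSR15006838.hg.1 to PSR15006850.hg.1, had 11 of 13 called and a median difference of -1.29, from 6.36 to 6.49 in shNS to 4.64 to 5.16 in shPLK1. In all 6 stretches the medians of the 4 arrays of each group lay apart, which follows in part from the way they were chosen. Among junctions, the longest higher stretch ran from JUC15009744.hg.1 to JUC15009764.hg.1 (17 of 21 called, median difference 0.91) and the longest lower one from JUC15004644.hg.1 to JUC15004658.hg.1 (11 of 15 called, median difference -1.02).

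Higher and lower stretches followed each other at several places, and 1 of these, picked after the values were seen, is described for its large differences. Between PSR15012665.hg.1 and PSR15012851.hg.1, 3 higher stretches with 21, 13 and 43 called probe sets and median differences of 2.16, 0.99 and 1.02 were followed by 2 lower ones with 10 and 5 called probe sets and median differences of -1.41 and -0.96. Junction probe sets showed the same order between JUC15006710.hg.1 and JUC15006851.hg.1. There, 3 higher stretches with median differences of 2.37, 1.38 and 1.29 preceded 1 lower stretch at -1.37. These junction stretches are all in run 15 and account for 35 of its 42 higher calls and 6 of its 8 lower calls. These stretches carry no gene name, for the reason given above.

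The largest single increases among exon probe sets came in part from that place. PSR15012684.hg.1 had signals of 6.43, 6.60, 6.54 and 5.69 in shPLK1 and of 3.84, 3.40, 3.22 and 3.40 in shNS, a difference of 2.85 (standard error 0.21, adjusted p = 2.4e-05 from limma). PSR15012671.hg.1 and PSR15012687.hg.1, a few numbers away, were 2.71 and 2.69 higher. PSR15004125.hg.1 lies in another stretch, in run 5, and rose by 2.83, with 6.08, 6.03, 6.91 and 5.97 in shPLK1 and 3.06, 3.35, 3.45 and 3.82 in shNS (standard error 0.23, adjusted p = 3.9e-05 from limma). The shNS signals of the increases other than PSR15012687.hg.1 are near the median of the background controls, so these differences are not exact sizes.

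The largest single decrease among exon probe sets was that of PSR15016332.hg.1, with 3.34, 2.81, 2.56 and 3.30 in shPLK1 and 5.69, 5.44, 5.22 and 5.72 in shNS, a difference of -2.52 (standard error 0.19, adjusted p = 2.9e-05 from limma). PSR15012843.hg.1 and PSR15012840.hg.1, both in the lower stretch beside the 3 higher ones, differed by -2.17 and -2.10, and PSR15017664.hg.1 by -1.97. Among junctions JUC15005114.hg.1 rose by 3.16 (standard error 0.39, adjusted p = 0.0033 from limma), from 2.84, 3.78, 4.37 and 4.84 in shNS to 7.45, 6.65, 7.21 and 7.13 in shPLK1. The shNS arrays of this junction were spread over 2 log2 units. JUC15006718.hg.1 rose by 3.14, JUC15008868.hg.1 differed by -2.91 and JUC15003496.hg.1 by -2.59. By an ordinary equal-variance test across all junction probe sets JUC15006718.hg.1 and JUC15003496.hg.1 missed the threshold (Benjamini-Hochberg adjusted p = 0.053 for each, against 0.0056 and 0.0062 from limma). These 12 probe sets were picked from calls without overlap, so the separation of their groups follows from the choice.

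**Figure D5:**
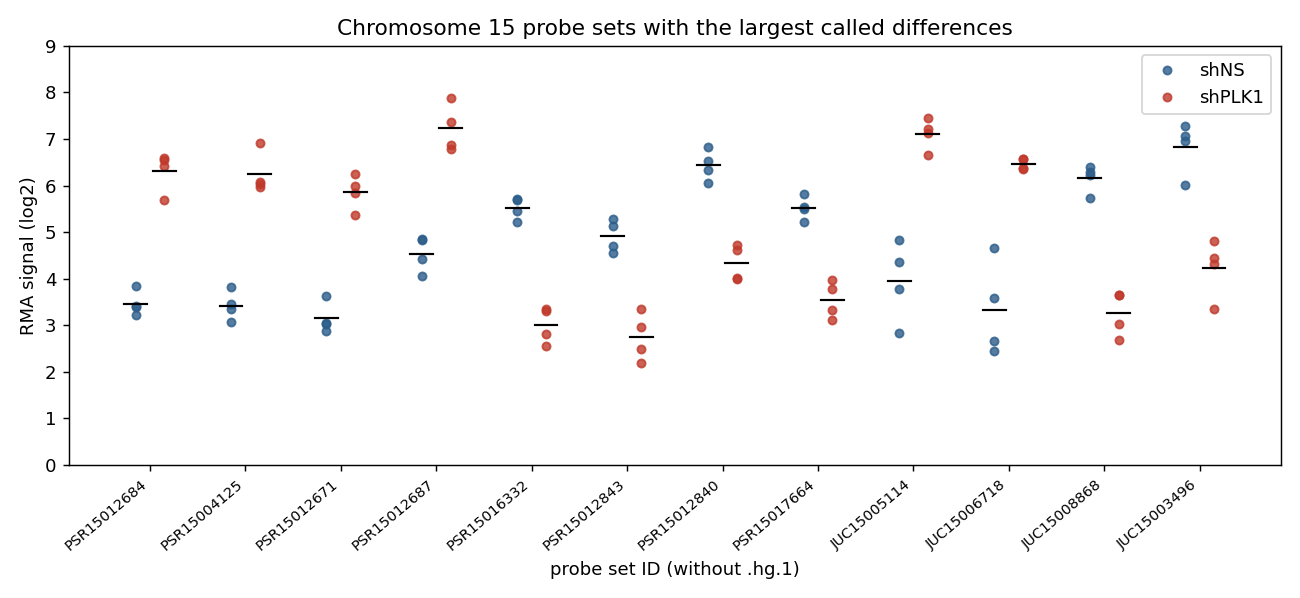
RMA signal (log2) of the 8 exon and 4 junction probe sets of chromosome 15 with the largest called differences, with 4 arrays per group (points) and group means (bars). The groups do not overlap in any of the 12, and the mean of the lower group lies between 2 and 5 in all 12.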

How the data were processed

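RNA of 4 A375 shPLK1 and 4 A375 shNS cultures was measured on Affymetrix Human Transcriptome Arrays. The deposited log2 signals were made by the authors in the Transcriptome Analysis Console by RMA (background correction, quantile normalization, 1 summary per probe set). Because the quantile step gives every array the same distribution, shifts are relative to the other chromosomes. The genome build behind the IDs is not given in the sources used here. The authors' deposited cluster table also holds their fold changes and p-values, which were not used; only its averages on the log2 scale and gene names were. The members, the gene lists and the limit of 7 were chosen with earlier results of these data known.

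limma (3.58.1, R 4.3.3) was fitted to all 573909 exon and, separately, all 339146 junction probe sets with group as the only term, without a filter. Python (3.11.15) gave the shifts, runs and stretches. Named are every chromosome 15 cluster, the 4 highest and 4 lowest exon and the 2 highest and 2 lowest junction probe sets among calls without overlap, the 3 longest exon and the 1 longest junction stretches per direction, and the 3 (exon) or 2 (junction) highest and lowest runs. Probe sets that repeat the values of an earlier one (981 exon, 857 junction) were kept. Across chromosome 15 exon probe sets, Pearson's r was 0.985 to 0.989 among shPLK1 arrays, 0.986 to 0.989 among shNS arrays and 0.978 to 0.985 between groups. The number of arrays limits the precision. Alternatives were leaving out each array, a replicate block, no repeated probe sets, other centring, signal limits, variance models, thresholds and numbers of runs.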

Additional observations from a re-analysis of the deposited data

Results flagged for a closer look

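In 8 of the 64 groups of 4 arrays checked, 1 array lay far from the other 3 by Dixon's criterion at the 95% level, which chance meets in about 1 of 20 groups. The groups share arrays and in part probe sets, and many were picked for extreme values. Their count therefore cannot be set against that rate. In the exon runs, shNS replicate 4 was at 0.116 in run 1 (the others from -0.0059 to 0.014) and shNS replicate 1 at -0.035 in run 18 (the others from 0.0053 to 0.011). In the junction runs, shPLK1 replicate 4 was at 0.066 in run 2 (the others from 0.141 to 0.146) and shPLK1 replicate 3 at -0.091 in run 23 (the others from -0.031 to -0.019). For the junction shift of the whole chromosome, shPLK1 replicate 1 was at 0.064, above the others at 0.048 to 0.051. In the stretch from PSR15005705.hg.1 to PSR15005739.hg.1 the median of shNS replicate 4 was 7.76 (the others from 7.69 to 7.70), and in that from PSR15015928.hg.1 to PSR15015949.hg.1 the median of shNS replicate 2 was 9.04 (the others from 8.80 to 8.84). PSR15004125.hg.1 had 6.91 in shPLK1 replicate 3 (the others from 5.97 to 6.08).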

How the results depend on the processing

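The shift of chromosome 15 stayed above 0 under every alternative run, and its size followed the signal limit and the summary. For exons it was 0.056 with no limit, 0.083 from a mean of 6 and 0.107 by the mean in place of the median, and 0.087 to 0.093 with any 1 array left out. For junctions it was 0.076, 0.095 and 0.115 under the same settings, 0.112 from a mean of 8, and 0.101 to 0.108 with any 1 array left out. With 12 runs 100% of exon runs were above 0, against 87.5% with 24; with any 1 array left out it was 87.5% to 91.7% of exon and 83.3% to 91.7% of junction runs. Exon calls were 868 higher and 315 lower with a variance trend, and 756 and 253 over probe sets at or above the median level only. They were 415 and 153 by an ordinary equal-variance test with Benjamini-Hochberg adjustment. With 1 array left out they were 443 to 537 and 181 to 215, and at more than 2-fold with p below 0.05 without adjustment 220 and 87. Junction calls were 390 and 142 with a variance trend, and 117 to 152 and 40 to 57 with 1 array left out; the lower ones were 106 at those same limits and 113 with exons and junctions in 1 fit. The replicate numbers did not pair the arrays (same-number correlations of deviations from -0.145 to 0.042 over exons and -0.077 to 0.026 over junctions), and a replicate block gave 67 higher and 21 lower junction calls, and 444 and 171 exon calls. Of the named probe sets, JUC15006718.hg.1 and JUC15003496.hg.1 missed the threshold by the equal-variance test (adjusted p = 0.053 for each), and no named value changed direction where its groups did not overlap. Signals near the background limit the sizes of the largest single differences.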
